A study of Mus musculus with 2 samples.

Results

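The genes described here are 9 cathepsins, Ctsa, Ctsb, Ctsc, Ctsd, Ctsh, Ctsk, Ctsl, Ctss and Ctsz, and the asparaginyl endopeptidase legumain, Lgmn. They were chosen by name as proteases of the lysosome, with earlier results of these data known. These 10 of the 15247 genes in the table were all detected. Other cathepsin genes, Ctsf and Ctso among them, are in a separate list below. The cells were heart cells of C57BL/6 p16-FDR mice aged 20 to 22 months. This strain carries a FLP recombinase together with a diphtheria toxin receptor fused to the red fluorescent protein mCherry. Cells positive for mCherry were sorted by flow cytometry and profiled by 3' droplet sequencing, which counts unique molecular identifiers (UMIs). All cells belong to 1 group, mCherry+ heart cells, with 2 samples. Neither unsorted nor mCherry-negative cells were used here, so the comparisons are between kinds of cell within the sort.

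Lysosomal proteases are made as inactive precursors, sorted to acidic vesicles and activated there, often by one another. Macrophages use them to digest engulfed material and to trim the invariant chain and antigens for MHC class II. Fibroblasts use them for turnover of their own proteins and, when the enzymes are secreted, for breakdown of matrix proteins such as collagen.

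The cells fell into libraries that the cell names call Heart1 and Heart2. Heart1 had 266 cells and 3304045 UMIs, with a median of 11351 UMIs per cell, and Heart2 had 1160 cells and 10632723 UMIs, with a median of 8885. The libraries shared 0 cell barcodes. Nothing in the cell names ties a library to a sample record or to an animal. The p-values below therefore cover at most the spread between these libraries, which may be technical. Their errors rest mostly or wholly on the spread of other genes.

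Cells were gated on marker genes. A macrophage-gated cell had a UMI of at least 4 of the 6 genes C1qa, C1qb, C1qc, Csf1r, Fcer1g and Tyrobp and of at most 1 fibroblast marker. A fibroblast-gated cell had a UMI of at least 3 of the 5 genes Col1a1, Col1a2, Col3a1, Lum and Pdgfra and of at most 1 macrophage marker. This gave 37 macrophage-gated cells in Heart1 and 206 in Heart2, and 205 fibroblast-gated cells in Heart1 and 935 in Heart2. The 24 cells of Heart1 and 19 cells of Heart2 that met neither rule were left out. Median depths were 8133 and 9509 UMIs in macrophage-gated cells of Heart1 and Heart2, and 11841 and 8772 UMIs in fibroblast-gated cells.

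Genes held out of the gates were higher in the class of their label. Lyz2, the lysozyme of macrophages, had a UMI in every macrophage-gated cell of both libraries, against 6.34% and 7.27% of fibroblast-gated cells. Dcn, the matrix proteoglycan decorin, had a UMI in 10.8% and 22.3% of macrophage-gated cells, against 99.5% of fibroblast-gated cells of Heart1 and every one of Heart2. Summed over cells, Dcn in macrophage-gated cells stood at 0.000585 (95% interval 0.00016 to 0.00150) and 0.00129 (0.000972 to 0.00169) of its fibroblast-gated level. Lyz2 in fibroblast-gated cells stood at 0.000233 (0.000133 to 0.000378) and 0.000389 (0.000306 to 0.000487) of its macrophage-gated level. These ratios are used below as the background level of a gene outside its class, and all intervals cover counting error only.

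Markers of other cell types were low in both classes. All 4 T cell markers (Cd3e, Cd3d, Cd3g, Trbc2) had 0 UMIs in every gated population. The 3 mural markers found in the table, Rgs5, Kcnj8 and Abcc9, summed to 0 and 0.493 CPM (UMIs per 1000000 UMIs of the population) in macrophage-gated cells and to 95.9 and 37.2 CPM in fibroblast-gated cells. The 5 endothelial markers summed to 11.5 and 9.86 CPM in macrophage-gated cells and to 7.43 and 5.99 CPM in fibroblast-gated cells, with Cldn5 at 0 in both. The 2 neutrophil markers, S100a8 and Csf3r, summed to 31.7 and 28.1 CPM in macrophage-gated cells and to 0 and 0.359 CPM in fibroblast-gated cells. The 3 B cell markers summed to 20.2 and 9.37 CPM against 0 and 0.239 CPM, all from Cd79b in macrophage-gated cells, and the 4 cardiomyocyte markers to 54.7 and 46.8 CPM against 34.6 and 10.7 CPM. The part of these cells in the results was not tested.

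Macrophage-gated cells carried more RNA of 8 of the 10 proteases and fibroblast-gated cells more of the other two, Ctsl and Ctsk. Ctss and Ctsc RNA lay almost wholly in macrophage-gated cells, Ctsk RNA in fibroblast-gated cells, and the remaining genes were well represented in both. All 10 passed the filter on low values, a mean of at least 10 CPM. Together the 10 genes gave 16212 and 12767 CPM in macrophage-gated cells of Heart1 and Heart2, against 3033 and 3403 CPM in fibroblast-gated cells. Differences were tested with limma: the UMIs of each class in a library were added up, put on the scale log2(CPM + 5) and fitted with library as a block, with Benjamini-Hochberg adjustment over 8787 genes. Of the 10 proteases 8 were higher and 2 lower in macrophage-gated cells at an adjusted p under 0.05, and of all genes 17.1% were higher and 25.7% lower. At least 2-fold apart in both libraries were 7 higher and 2 lower, against 10.9% and 14.9% of all genes. The median log2 difference was 2.71 over the proteases and -0.16 over all genes. The fit had 1 residual degree of freedom and 16.9 prior ones, so its errors rest mostly on the spread of other genes. Differences on this scale understate the change of low genes.

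**Figure D1:**
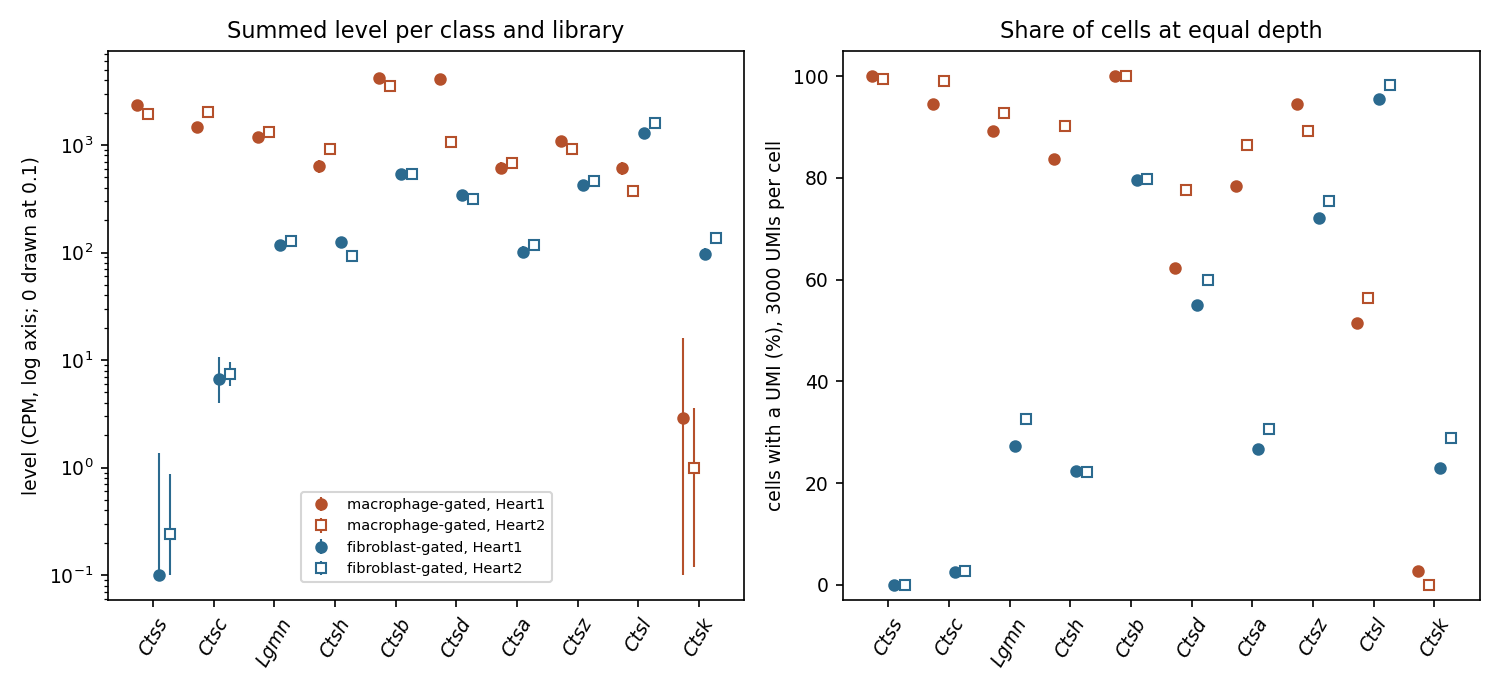
Level of each protease in macrophage-gated cells (red) and fibroblast-gated cells (blue) of library Heart1 (filled circles) and Heart2 (open squares). The left panel gives CPM of summed UMIs on a log axis with exact 95% Poisson intervals, with 0 drawn at 0.1, and the right panel gives the share of cells with a UMI after every cell was thinned to 3000 UMIs. In the left panel Ctsl and Ctsk have their blue points above the red ones, and the other 8 genes have their red points above the blue ones.

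Among the endopeptidases, Ctss and Ctsk went furthest apart. Cathepsin S, from Ctss, is the protease that cuts the invariant chain in antigen-presenting cells. Ctss had 809 UMIs (2331 CPM) in macrophage-gated cells of Heart1 and 3904 UMIs (1924 CPM) in those of Heart2, against 0 UMIs in 205 fibroblast-gated cells of Heart1 and 2 UMIs (0.239 CPM) in 935 cells of Heart2. Every macrophage-gated cell of both libraries had a Ctss UMI, while 2 fibroblast-gated cells of Heart2 had 1 UMI each. The 0 of Heart1 allows a share of fibroblast-gated cells with a UMI of up to 1.78% (exact binomial bound). Against a floor of 3 UMIs over the class, Ctss was at least 2090.1-fold higher in macrophage-gated cells of Heart1, and in Heart2 the ratio was 8037 (2224 to 66391). The log2 difference was 8.70 ± 0.22 (SE, limma, adjusted p = 5.93e-16), a fitted value that depends on the pseudocount. The fibroblast-gated level of Heart2 was 0.000124 (1.51e-05 to 0.00045) of the macrophage-gated one, and this interval overlaps that of the Lyz2 background in Heart2. Ctss was therefore not detectable above background in fibroblast-gated cells at this depth.

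Cathepsin K, from Ctsk, is the collagen-degrading protease known best from osteoclasts. Ctsk had 1 UMI (2.88 CPM) in macrophage-gated cells of Heart1 and 2 UMIs (0.986 CPM) in those of Heart2, against 263 UMIs (97.8 CPM) and 1147 UMIs (137 CPM) in fibroblast-gated cells. Of macrophage-gated cells, 1 of 37 and 2 of 206 had a Ctsk UMI, against 52.7% (45.6 to 59.7%) and 59.0% (55.8 to 62.2%) of fibroblast-gated cells. The fibroblast-gated level was 33.9 times (6.04 to 1345) the macrophage-gated one in Heart1 and 139 times (38.5 to 1151) in Heart2, and the log2 difference was -4.14 ± 0.30 (limma, adjusted p = 1.27e-09). The macrophage-gated level was 0.0295 (0.000743 to 0.166) and 0.00718 (0.000868 to 0.0260) of the fibroblast-gated one. These intervals overlap those of the Dcn background, so Ctsk was not detectable above background in macrophage-gated cells at this depth.

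Ctsk and Ctss are neighbours. In GRCm38, with GENCODE M21, Ctsk spans chr3:95499256-95509362 and Ctss chr3:95526786-95556403, both on the plus strand, with 17.4 kb and 0 protein-coding genes between them. Their promoter windows are shown because adjacent genes had opposite class patterns. They run from 250 bases before to 50 bases after the RefSeq start (GRCm38.p6), at chr3:95526536-95526835 for Ctss and chr3:95498960-95499259 for Ctsk, 5′ to 3′ on the plus strand. Capitals mark GAGGAAG or its reverse complement CTTCCTC, a core sequence that ETS factors such as PU.1 can bind.
Ctss: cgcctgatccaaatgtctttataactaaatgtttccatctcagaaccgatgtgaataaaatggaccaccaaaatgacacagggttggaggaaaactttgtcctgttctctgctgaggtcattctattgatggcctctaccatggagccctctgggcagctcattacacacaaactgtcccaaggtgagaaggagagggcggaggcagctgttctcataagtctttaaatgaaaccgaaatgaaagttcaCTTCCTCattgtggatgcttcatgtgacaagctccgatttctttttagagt
Ctsk: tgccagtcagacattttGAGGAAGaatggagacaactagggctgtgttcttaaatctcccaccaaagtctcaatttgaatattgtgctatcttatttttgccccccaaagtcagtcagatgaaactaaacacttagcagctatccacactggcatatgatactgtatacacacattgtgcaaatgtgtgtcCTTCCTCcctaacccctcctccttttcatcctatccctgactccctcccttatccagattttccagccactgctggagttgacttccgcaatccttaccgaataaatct
The table held 10 windows for 8 of the proteases. The motif GAGGAAG, searched on both strands, was in 3 of these 10, those of Ctss, Ctsk and Ctsc, and in 13.6% of all 32851 promoter windows. Ctss had 1 match, whose first base was at -1 counted from the start, and Ctsk had 2, at -233 and -59. Both of the neighbours held it, and whether it bears on their class patterns was not tested. A match describes letters only, not a bound site.

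Cathepsin L, from Ctsl, is a broad endopeptidase of lysosomes that is also secreted. Ctsl had 611 and 374 CPM in macrophage-gated cells of Heart1 and Heart2, against 1284 and 1607 CPM in fibroblast-gated cells. Both fibroblast-gated values lay above both macrophage-gated ones, and the gap was 2.10-fold (1.83 to 2.43) in Heart1 and 4.29-fold (3.99 to 4.63) in Heart2. The log2 difference was -1.58 ± 0.19 (limma, adjusted p = 1.52e-06). At 3000 UMIs per cell, 51.4% and 56.3% of macrophage-gated cells had a Ctsl UMI, against 95.6% and 98.3% of fibroblast-gated cells. The median fibroblast-gated cell held 12.6 Ctsl UMIs per 10000 in Heart1 and 15.5 in Heart2, and the median macrophage-gated cell 2.66 and 2.58. The gene overlaps the same-strand processed pseudogene Gm49230, so its counts are uncertain where reads fall in both.

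Cathepsin B, from Ctsb, acts both as an endopeptidase and as a carboxypeptidase. Ctsb had 4189 and 3524 CPM in macrophage-gated cells, against 532 and 539 CPM in fibroblast-gated cells, a ratio of 7.87 (7.31 to 8.47) in Heart1 and 6.54 (6.29 to 6.78) in Heart2. The fibroblast-gated values of the libraries were closer to each other than the macrophage-gated ones. The log2 difference was 2.83 ± 0.14 (limma, adjusted p = 3.38e-12). At 3000 UMIs, every macrophage-gated cell of both libraries and 79.5% and 79.7% of fibroblast-gated cells had a UMI, so most cells of either class held Ctsb RNA.

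The exopeptidases of the cysteine family were all higher in macrophage-gated cells, by very different amounts. Cathepsin C, or dipeptidyl peptidase 1, from Ctsc, activates the granule proteases of immune cells. Ctsc had 1484 and 2035 CPM in macrophage-gated cells, against 6.69 (3.97 to 10.6) and 7.42 (5.69 to 9.51) CPM in fibroblast-gated cells, and the log2 difference was 7.18 ± 0.21 (limma, adjusted p = 3.96e-15). The ratio was 222 (139 to 377) in Heart1 and 274 (213 to 358) in Heart2. The fibroblast-gated level, 0.00451 (0.00265 to 0.00720) and 0.00365 (0.00279 to 0.00468) of the macrophage-gated one, lay above the Lyz2 background in both libraries. It did not lie above the ratio of Cd14 (5.20 against 691 CPM in Heart1 and 13.2 against 655 CPM in Heart2). Whether Ctsc exceeds background thus depends on the gene taken as background. Of fibroblast-gated cells 14 of 205 and 56 of 935 had a Ctsc UMI, and the highest of them held 3. For the 7 proteases other than Ctss, Ctsc and Ctsk, the fibroblast-gated level was at least 0.0841 of the macrophage-gated one in each library, the lowest value being that of Ctsd in Heart1.

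Cathepsin H, from Ctsh, is an aminopeptidase. Ctsh had 634 and 928 CPM in macrophage-gated cells, against 125 and 92.4 CPM in fibroblast-gated cells, and the summed values of the classes did not overlap. The ratio was 5.06 (4.25 to 6.01) in Heart1 and 10.0 (9.23 to 10.9) in Heart2, and the log2 difference 2.78 ± 0.21 (limma, adjusted p = 2.73e-09). Cathepsin Z, from Ctsz, is a carboxypeptidase. Ctsz had 1092 and 912 CPM in macrophage-gated cells, against 425 and 461 CPM in fibroblast-gated cells. It rose least of the 8, with a log2 difference of 1.16 ± 0.16 (limma, adjusted p = 7.65e-06), and its ratio of 2.57 (2.28 to 2.89) in Heart1 was 1.98 (1.87 to 2.09) in Heart2, under 2-fold.

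Legumain, from Lgmn, cuts after asparagine and processes several cathepsin precursors into their mature chains. Lgmn had 1187 and 1315 CPM in macrophage-gated cells, against 117 and 127 CPM in fibroblast-gated cells. The ratio was 10.1 (8.71 to 11.7) in Heart1 and 10.4 (9.64 to 11.1) in Heart2, intervals that overlap, and the log2 difference was 3.30 ± 0.17 (limma, adjusted p = 7.81e-12). At 3000 UMIs, 89.2% and 92.7% of macrophage-gated cells had a Lgmn UMI, against 27.3% and 32.6% of fibroblast-gated cells.

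The members outside the cysteine family are Ctsd, an aspartic protease, and Ctsa, a serine carboxypeptidase that also protects lysosomal galactosidase and neuraminidase. Ctsd had 4068 CPM in macrophage-gated cells of Heart1 and 1066 CPM in Heart2, against 342 and 313 CPM in fibroblast-gated cells. The macrophage-gated values differed between the libraries more than those of any other member above the floor, and the ratio was 11.9 (10.9 to 12.9) in Heart1 and 3.40 (3.21 to 3.60) in Heart2. The log2 difference was 2.65 ± 0.26 (limma, adjusted p = 8.48e-08), made of 3.55 in Heart1 and 1.75 in Heart2. Ctsa had 614 and 687 CPM in macrophage-gated cells, against 101 and 117 CPM in fibroblast-gated cells, and a log2 difference of 2.52 ± 0.18 (limma, adjusted p = 1.21e-09). The shares of cells with a Ctsd UMI were closer than the levels. At 3000 UMIs 62.2% and 77.7% of macrophage-gated cells had a Ctsd UMI, against 55.1% and 59.9% of fibroblast-gated cells. For Ctsa the shares were 78.4% and 86.4%, against 26.8% and 30.7%. Ctsd overlaps the same-strand protein-coding gene Gm49369, so its counts are uncertain where reads fall in both.

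The other genes are spread over the genome (GRCm38, GENCODE M21). On the plus strand lie Ctsa at chr2:164832873-164841032, Ctsb at chr14:63122462-63145923, Ctsc at chr7:88278085-88310888 and Ctsh at chr9:90054152-90076089. On the minus strand lie Ctsd at chr7:142375911-142388038, Ctsl at chr13:64359337-64370890, Ctsz at chr2:174427493-174439039 and Lgmn at chr12:102394084-102439813. Ctsa, Ctsb, Ctsc, Ctsl and Ctsz overlap genes on the opposite strand, among them Pltp, Fdft1 and Nelfcd, and Ctss overlaps the pseudogene Hmgb1-ps5 on its own strand. Ctsd and Ctsl also overlap an annotated gene model on their own strand, Gm49369 and the pseudogene Gm49230. Whether UMIs were counted by strand is not given in the sources used here, so reads of such partners may not be told apart.

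The promoter windows of Ctsd and of the second RefSeq start of Ctsa are shown because each holds 2 matches to CACGTG, a palindrome whose extended form is the binding sequence of TFEB, a regulator of lysosomal genes. They lie at chr7:142387778-142388077 on the minus strand and chr2:164833523-164833822 on the plus strand (GRCm38.p6) and are written 5′ to 3′ along the gene, with the motif in capitals.
Ctsd: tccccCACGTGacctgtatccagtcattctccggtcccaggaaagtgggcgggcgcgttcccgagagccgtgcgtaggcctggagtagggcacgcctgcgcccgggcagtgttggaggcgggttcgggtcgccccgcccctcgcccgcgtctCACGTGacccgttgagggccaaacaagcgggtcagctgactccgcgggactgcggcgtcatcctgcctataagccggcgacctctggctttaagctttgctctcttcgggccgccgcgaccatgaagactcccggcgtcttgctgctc
Ctsa: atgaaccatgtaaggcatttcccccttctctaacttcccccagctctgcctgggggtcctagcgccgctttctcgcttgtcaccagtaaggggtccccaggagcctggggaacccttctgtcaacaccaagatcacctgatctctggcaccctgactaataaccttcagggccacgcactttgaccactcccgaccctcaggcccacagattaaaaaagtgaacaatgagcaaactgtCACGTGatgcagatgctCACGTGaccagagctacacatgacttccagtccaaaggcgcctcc
The matches start at -245 and -98 in Ctsd and at -12 and 5 in Ctsa. CACGTG was also in a window of Ctsl at -236 and of the second start of Lgmn at -49, so 4 of the 10 windows held it, against 7.15% of all windows. These 4 included that of Ctsl, which was lower in macrophage-gated cells, and the motif was in none of the windows of Ctss, Ctsc, Ctsk and Ctsz. The AP-1 motif TGANTCA was in 0 windows of the proteases and in 7.81% of all windows.

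**Figure D2:**
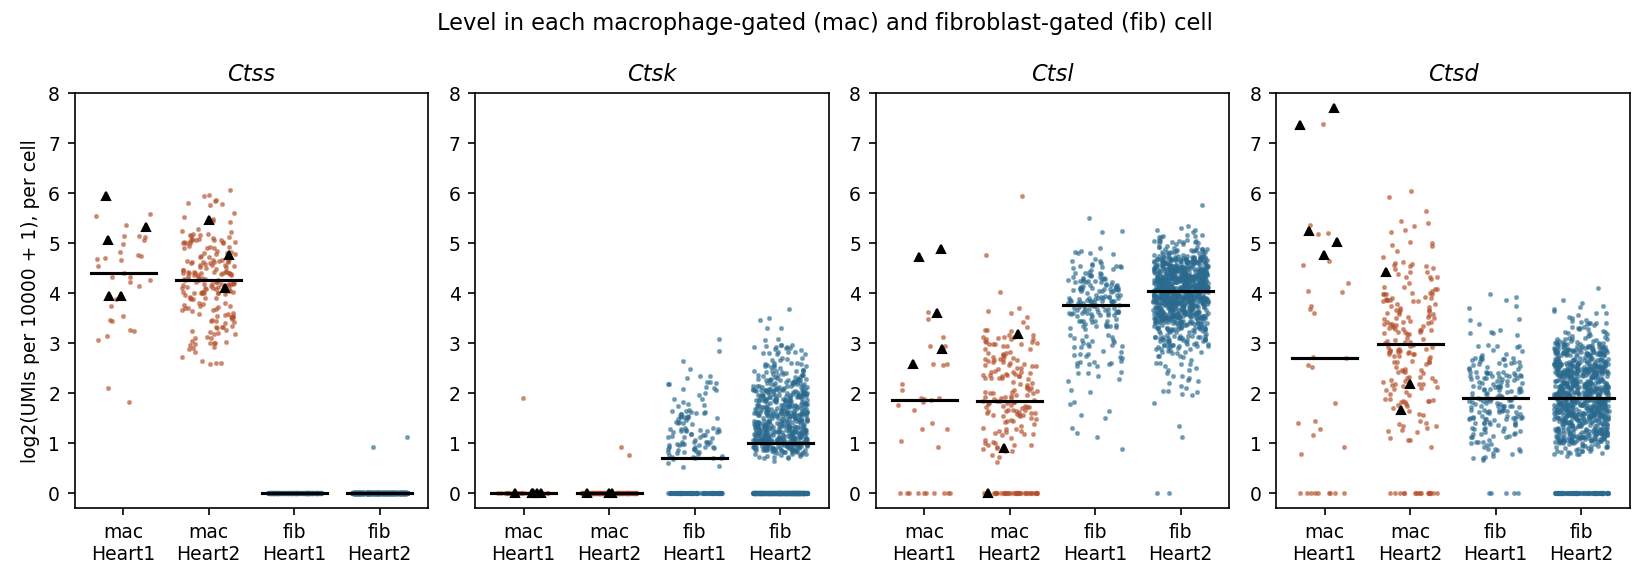
Level of Ctss, Ctsk, Ctsl and Ctsd in each cell, as log2(UMIs per 10000 + 1), for macrophage-gated (mac, red) and fibroblast-gated (fib, blue) cells of each library. Bars are medians and black triangles are macrophage-gated cells with a Gpnmb UMI. Nearly all fibroblast-gated cells are at 0 for Ctss. Nearly all macrophage-gated cells are at 0 for Ctsk, as are many fibroblast-gated cells. Ctsl overlaps between the classes, and in Ctsd the macrophage-gated cells of Heart1 reach highest.

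Other genes of the lysosome were set beside the proteases by list. Of 7 other lysosomal peptidases tested, 3 were higher and 1 lower in macrophage-gated cells (median log2 difference 0.12). Over all genes 17.1% were higher and 25.7% lower, and the counts of each list stand against these shares. Prcp, a prolyl carboxypeptidase, had 118 and 165 CPM in macrophage-gated cells, against 18.6 and 17.1 CPM in fibroblast-gated cells (2.66 ± 0.25). Tpp1, a tripeptidyl peptidase, was also higher (1.23 ± 0.21). Cpq, a carboxypeptidase, was lower, with 23.0 and 61.1 CPM in macrophage-gated cells, against 319 and 402 CPM in fibroblast-gated cells (-3.08 ± 0.24). The third gene called higher was Scpep1, a serine carboxypeptidase (0.60 ± 0.22), named after its value was seen. The 7 also held the cathepsin genes Ctsf (0.12 ± 0.24, limma, adjusted p = 0.719) and Ctso (-0.51 ± 0.25, limma, adjusted p = 0.112). Neither was called, and both were named after their values were seen. The lists gave 17 genes with values by the rule for named genes, and their limma adjusted p-values ran up to 0.00102 for the transcription factor gene Mitf.

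Of 6 protease inhibitors tested, 1 was higher and 2 lower in macrophage-gated cells (median -0.34), which for so few genes is near the 17.1% and 25.7% of all genes. Timp3, an inhibitor of metalloproteases bound to matrix, had 0 and 2.96 CPM in macrophage-gated cells, against 1236 and 671 CPM in fibroblast-gated cells (fitted difference -7.18 ± 0.30). Cst6, a secreted inhibitor of cathepsins and legumain, had 0 UMIs in macrophage-gated cells of both libraries, against 121 and 54.2 CPM in fibroblast-gated cells. Cstb, a cytosolic inhibitor of cathepsins, was the gene called higher (1.20 ± 0.21), and Cst3, the secreted cystatin C, had 3783 and 5853 CPM in macrophage-gated cells and 6074 and 4339 CPM in fibroblast-gated cells (limma adjusted p = 0.599). Both were named after their values were seen.

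Of 19 genes of the lysosomal membrane and proton pump, 9 were higher and 2 lower in macrophage-gated cells (median 0.57), against 17.1% and 25.7% of all genes. Laptm5, a lysosomal protein of blood cells, had 1345 and 1092 CPM against 0.372 and 0.239 CPM, and the macrophage marker Cd68 had 651 and 665 CPM against 0.743 and 0.599 CPM. The pump subunits Atp6v1b2 (1.39 ± 0.23) and Atp6v0b (1.32 ± 0.17) were higher by far less. Of 28 hydrolases of sugars and lipids, 18 were higher and 3 lower (median 0.92), against the same shares of all genes. They were led by the mannosidase gene Man2b1 with 547 and 561 CPM in macrophage-gated cells, against 35.3 and 51.6 CPM in fibroblast-gated cells (3.55 ± 0.21). Galc, a galactosylceramidase (2.46 ± 0.29), Acp5, an acid phosphatase (2.37 ± 0.30), and Pla2g15, a phospholipase (2.35 ± 0.26), followed. All these medians lie below the 2.71 of the proteases, which were chosen with earlier results of these data known.

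Of 12 genes of sorting and regulation, 5 were higher and 3 lower (median 0.72), against 17.1% and 25.7% of all genes, so the lower share is near that of all genes. Igf2r, the large receptor that carries enzymes with phosphorylated mannose to the lysosome, had 20.2 CPM in macrophage-gated cells of Heart1 and 0.493 CPM in Heart2, against 80.3 and 130.5 CPM in fibroblast-gated cells (-3.19 ± 0.43). The small receptor of the same pathway, M6pr, was higher in macrophage-gated cells (0.77 ± 0.23) and was named after its value was seen. Grn, whose product progranulin is taken to the lysosome, was higher (2.33 ± 0.16), as were the lysosomal transcription factor genes Tfe3 (1.31 ± 0.25) and Mitf (1.26 ± 0.28). For Tfeb, which encodes the related factor, the values were 37.5 and 19.2 CPM against 11.9 and 15.6 CPM (limma adjusted p = 0.0625).

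Within macrophage-gated cells the proteases did not vary together as 1 block. Across cells, Pearson's r of the log values was 0.76 in Heart1 and 0.64 in Heart2 for Ctsb with Ctsd, 0.58 and 0.46 for Ctsd with Ctsl, and 0.60 and 0.39 for Ctsb with Ctsl. For Ctss with Ctsb it was 0.22 and -0.23, and for Ctsc with Ctsd -0.15 and -0.00. These cells share their library and depth, so the values are descriptions. In fibroblast-gated cells Ctsb with Ctsd gave -0.06 and 0.07. Other pairs there were positive in both libraries, such as Ctsl with Ctsz (0.33 and 0.28) and Ctsk with Ctsl (0.31 and 0.15). Ctsh with Ctsl (-0.25 and 0.13) differed in sign.

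A few cells of Heart1 held much of its Ctsd. The 5 macrophage-gated cells of Heart1 with a UMI of Gpnmb, a glycoprotein gene of lipid-laden macrophages, held 61.1% of the Ctsd UMIs of the 37 cells, 61.3% of the Ctsl UMIs and 727 of the 1454 Ctsb UMIs. Their levels were 10049 CPM of Ctsd against 2102 CPM in the 32 cells without, 1514 against 314 CPM of Ctsl, and 8465 against 2783 CPM of Ctsb. Ctsc ran the other way, with 757 CPM in the 5 cells against 1723 CPM in the 32, and Lgmn had 1141 against 1202 CPM. The single highest cell held 374 Ctsd UMIs, 26.5% of the total, and without it the class level of Heart1 was 3154 CPM. Of the 549 Ctsd UMIs of the 32 cells, 296 were also in 1 cell. Without the highest cell of each group, Ctsd had 7205 CPM in cells with a Gpnmb UMI and 1039.7 CPM in those without. The 5 cells were deep, with a median of 18013 UMIs against 7221 in the other 32.

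In Heart2 the 3 cells with a Gpnmb UMI had 825 CPM of Ctsd against 1071 CPM in the 203 without, 275 against 376 CPM of Ctsl and 2338 against 3546 CPM of Ctsb. The pattern of Heart1 was therefore not seen in these 3 cells, but the groups of the libraries are not alike. Gpnmb had 88 UMIs in the 5 cells of Heart1 and 7 in the 3 cells of Heart2, of which 5 were in 1 cell. Cd74 had 5077 CPM in the 5 cells and 50766 CPM in the 3. Gpnmb also had a UMI in 35.1% and 33.4% of fibroblast-gated cells of Heart1 and Heart2. With all Gpnmb-positive cells left out, an alternative chosen after the data were seen, the class difference of Ctsd was 2.18, of Ctsl -2.05 and of Ctsb 2.54, each on the same side of the limma threshold (adjusted p = 4e-10 for Ctsd).

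Cells with and without a UMI of Folr2, the folate receptor of resident heart macrophages, differed in their protease mix in both libraries. There were 23 Folr2-positive and 14 Folr2-negative macrophage-gated cells in Heart1, and 145 and 61 in Heart2. Ctss had 2147 CPM in Folr2-positive and 2805 CPM in Folr2-negative cells of Heart1, and 1616 and 2958 CPM in those of Heart2, ratios of 0.765 (0.660 to 0.889) and 0.546 (0.511 to 0.584). Ctsh and Ctsz were lower in Folr2-positive cells too, with ratios of 0.440 (0.335 to 0.579) and 0.677 (0.613 to 0.748) for Ctsh and of 0.742 (0.598 to 0.925) and 0.712 (0.644 to 0.788) for Ctsz. These ratios have no test across libraries.

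Ctsb, Ctsd and Ctsc had higher levels in Folr2-positive cells of both libraries. Ctsb had 4494 CPM in Folr2-positive and 3404 CPM in Folr2-negative cells of Heart1 and 3797 and 2613 CPM in those of Heart2, and Ctsc 1587 and 1217 CPM in Heart1 and 2103 and 1807 CPM in Heart2. For Ctsd the ratio was 7.11 (5.62 to 9.13) in Heart1 and 1.46 (1.30 to 1.63) in Heart2. For Lgmn, with ratios of 1.23 (0.975 to 1.55) and 1.07 (0.978 to 1.18), the intervals held 1. Ctsa (1.23 and 0.951) and Ctsl (0.959 and 1.23) lay on opposite sides of 1 in the libraries.

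Single cells weighed on some of these levels. The highest of the 14 Folr2-negative cells of Heart1 held 62 of their 73 Ctsd UMIs, 48 of their 61 Ctsl UMIs and 179 of their 330 Ctsb UMIs. The highest Folr2-positive cell of Heart1 held 374 of their 1339 Ctsd UMIs and was also the highest of the 5 cells with a Gpnmb UMI. Those 5 cells held 863 Ctsd UMIs, against 73 in all Folr2-negative cells, so the Gpnmb and Folr2 groups of Heart1 share cells. Their Ctsd patterns are therefore not separate observations. Without the highest cell of each population, Ctsd had 4157 CPM in Folr2-positive and 137 CPM in Folr2-negative cells of Heart1, and 1115 and 694 CPM in those of Heart2. Ctsb then had 3606 and 1883 CPM in Heart1 and 3729 and 2549 CPM in Heart2. Ctsl had 452 and 162 CPM in Heart1 and 369 and 224 CPM in Heart2, higher in Folr2-positive cells of both libraries, so its opposite side in Heart1 rests on 1 cell.

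The Folr2-negative cells were rich in Cd74, the invariant chain, with 4586 CPM in Folr2-positive against 37430.1 CPM in Folr2-negative cells of Heart1 and 9524 against 47391 CPM in those of Heart2. The groups also differed in depth, with medians of 9514 against 6033 UMIs in Heart1 and 10388 against 7125 in Heart2.

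**Figure D3:**
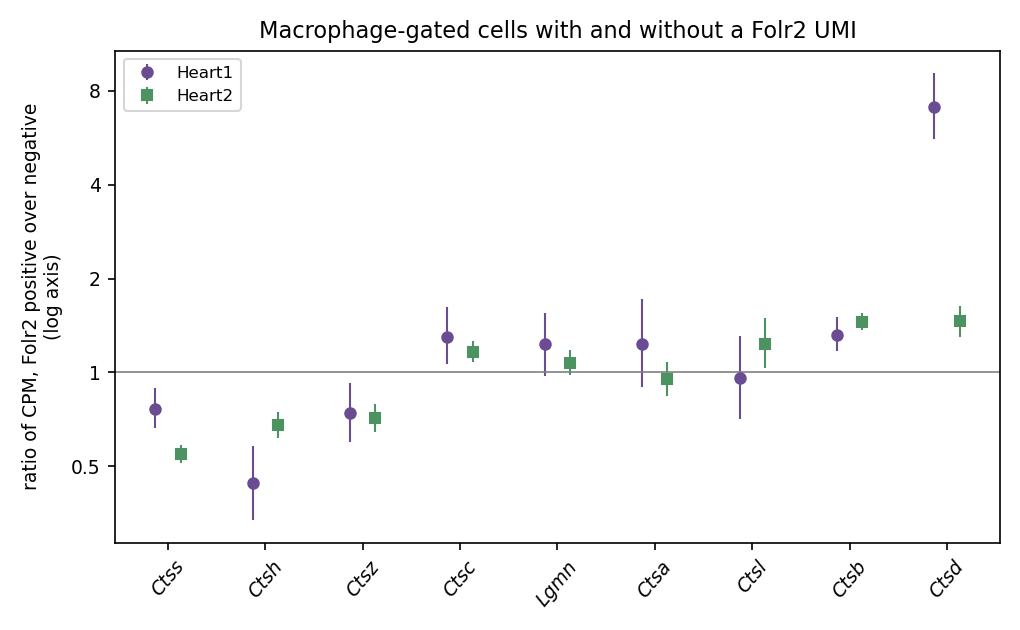
Ratio of the level (CPM) in Folr2-positive over Folr2-negative macrophage-gated cells on a log axis, in Heart1 (circles) and Heart2 (squares), with exact 95% intervals that cover counting error only. Ctss, Ctsh and Ctsz lie below 1 and Ctsc, Ctsb and Ctsd above 1 in both libraries. The Ctsd value of Heart1 stands at 7.11, with 62 of the 73 Folr2-negative UMIs in 1 cell and 374 of the 1339 Folr2-positive UMIs in another.

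Fibroblast-gated cells were divided by 3 marker genes. Wif1, a secreted Wnt inhibitor, had a UMI in 38 of the 205 cells of Heart1 (18.5%) and in 10 of the 935 of Heart2 (1.07%). Thbs4, a matrix glycoprotein, had a UMI in 28 (13.7%) and 16 (1.71%). Pi16, a marker of adventitial fibroblasts, had a UMI in 184 (89.8%) and 851 (91.0%). Median depths were 16060 and 13219 UMIs in Thbs4-positive cells of Heart1 and Heart2, against 11437 and 8707 in Thbs4-negative cells. For Wif1 the medians were 11902 and 12034 UMIs against 11829 and 8707, and for Pi16 11905 and 8877 against 10972 and 7397. The part of depth in the subset differences was not tested. The sets overlapped, with 28 and 6 cells positive for both Wif1 and Pi16 and 27 and 16 for both Thbs4 and Pi16. Because only 10 cells of Heart1 had none of the 3, each marker was fitted on its own, cells with a UMI minus cells without, with a minimum of 10 cells that was set after the cells were counted. Ctss passed the filter on low values in none of these fits. Each fit had 1 residual degree of freedom. The prior ones were 9.46 for Wif1, 13.2 for Pi16 and infinite for Thbs4. The errors of the Thbs4 fit therefore rest wholly on the mean-variance trend over genes.

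In the main fit, Wif1-positive fibroblast-gated cells had more Lgmn and Ctsh and less Ctsk and Ctsl. Of 9 proteases tested 2 were higher and 2 lower, and of 8617 genes 2.32% were higher and 2.43% lower. Lgmn had 300.5 CPM in Wif1-positive cells of Heart1 and 319 CPM in Heart2, against 76.8 and 124 CPM in Wif1-negative cells (1.61 ± 0.25, limma, adjusted p = 0.00387). At 3000 UMIs, 19 of 38 and 8 of 10 Wif1-positive cells had a Lgmn UMI, against 37 of 167 and 297 of 925 Wif1-negative cells. The highest cell held 35 of the 147 Lgmn UMIs of Wif1-positive cells of Heart1, and without the highest cell the levels were 237 CPM in Heart1 and 275 CPM in Heart2, both still above both Wif1-negative values.

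Ctsh had 221 and 227 CPM in Wif1-positive cells, against 104 and 90.5 CPM in Wif1-negative cells (1.16 ± 0.25, limma, adjusted p = 0.0215). Ctsk had 18 UMIs (36.8 CPM) and 5 UMIs (42.0 CPM) in Wif1-positive cells, against 111 and 139 CPM in Wif1-negative cells (-1.54 ± 0.29, limma, adjusted p = 0.0103). Both Ctsk values of Wif1-positive cells were less than both of Wif1-negative cells, though 5 UMIs in 10 cells leave the Heart2 ratio anywhere from 0.0982 to 0.709. Ctsl had 752 and 1050.3 CPM in Wif1-positive cells, against 1403 and 1615 CPM in Wif1-negative cells (-0.76 ± 0.19, limma, adjusted p = 0.0470). Without the library block none of the 4 passed, with limma adjusted p-values of 0.103 for Lgmn, 0.0870 for Ctsk, 0.114 for Ctsh and 0.331 for Ctsl. Against cells with none of the 3 marker genes, Ctsk (0.612) and Ctsl (0.169) did not pass, while Lgmn (0.0179) and Ctsh (0.0235) did. That fit had infinite prior degrees of freedom, so its errors too rest wholly on the trend over genes. The Ctsl call was lost in 7 alternative fits in all, most of those run, with limma adjusted p-values of 0.0544 to 0.331.

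The other proteases gave no call between Wif1-positive and Wif1-negative cells. Ctsd had 256 CPM in Wif1-positive cells of Heart1 and 471 CPM in Heart2, against 361 and 311 CPM in Wif1-negative cells, so its sign differed between the libraries. Ctsc had 4 and 3 UMIs in Wif1-positive cells. Among the other lists, the inhibitors gave the calls: Timp3 had 2414 and 2025 CPM in Wif1-positive cells, against 974 and 651 CPM in Wif1-negative cells (1.47 ± 0.19, limma, adjusted p = 0.000916), and Cst6 had 18.4 and 16.8 CPM, against 144 and 54.8 CPM (-2.06 ± 0.38, limma, adjusted p = 0.00916). The peptidases, membrane genes, hydrolases and sorting genes gave 0 calls in this fit, where 2.32% of all genes were higher and 2.43% lower.

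Markers of other cells in the Wif1-positive cells were measured. Lyz2 had 2 and 0 UMIs there. Cd74 had 136 UMIs in Heart1, of which 109 were in 1 cell, and 67 in Heart2, of which 61 were in 1 cell. The 3 mural markers summed to 347 and 143 CPM in Wif1-positive cells, against 95.9 and 37.2 CPM in all fibroblast-gated cells, and their part in the result was not tested.

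**Figure D4:**
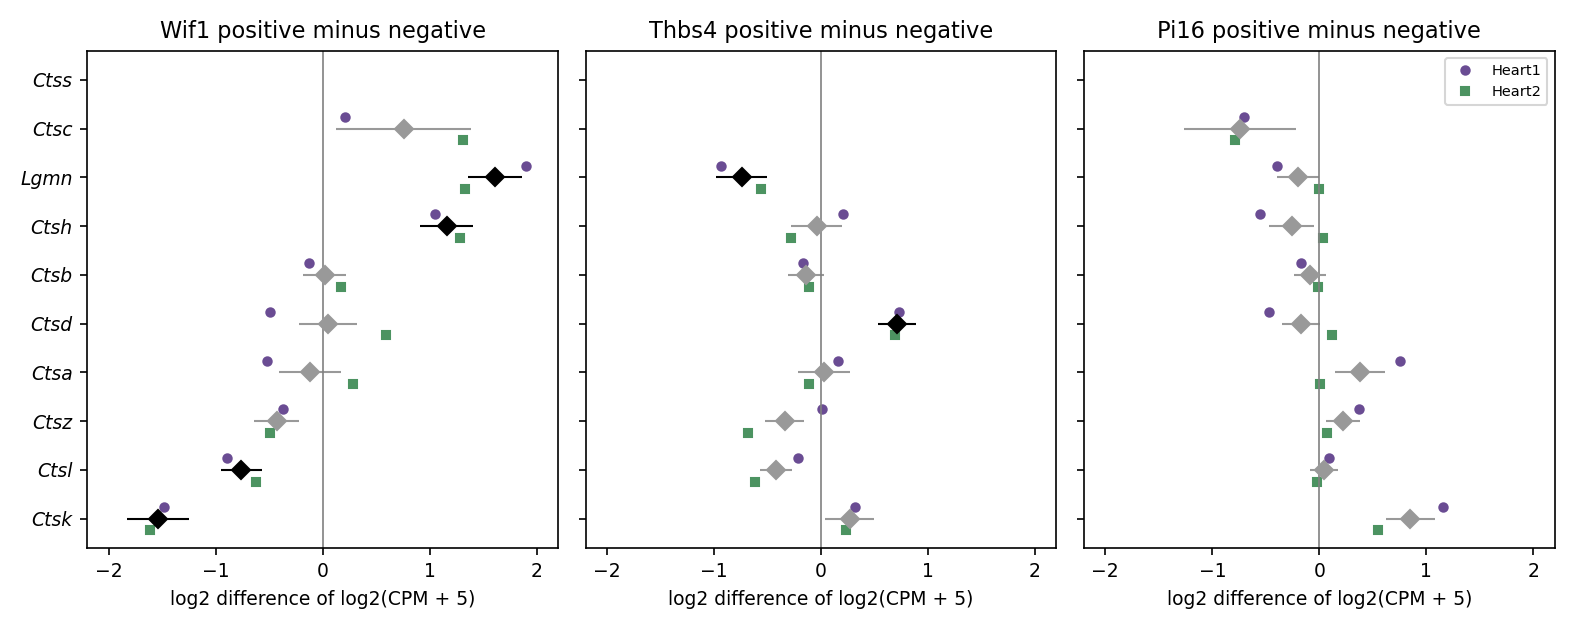
Log2 difference of log2(CPM + 5) for each protease between fibroblast-gated cells with and without a UMI of Wif1, Thbs4 or Pi16. Diamonds with bars are the limma estimate and its standard error, black where the adjusted p is under 0.05 and grey otherwise, with the value of Heart1 (circles) above and of Heart2 (squares) below. Lgmn is at 1.61 for Wif1 and at -0.74 for Thbs4, and genes that were not tested have no symbol.

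In the main fit, Thbs4-positive cells had more Ctsd and less Lgmn. Of 8 proteases tested 1 was higher and 1 lower, and of 8576 genes 2.90% were higher and 3.98% lower. Ctsd had 507 CPM in Thbs4-positive cells of Heart1 and 501 CPM in Heart2, against 304 and 309 CPM in Thbs4-negative cells (0.71 ± 0.18, limma, adjusted p = 0.00232). Lgmn had 33 UMIs (65.7 CPM) and 18 UMIs (85.1 CPM) in Thbs4-positive cells, against 129 and 128 CPM in Thbs4-negative cells (-0.74 ± 0.24, limma, adjusted p = 0.0363). The log2 differences in Heart1 and Heart2 were 0.73 and 0.69 for Ctsd and -0.93 and -0.56 for Lgmn. In Heart2 the Lgmn ratio was 0.664 (0.392 to 1.06), an interval that holds 1. The errors of this fit rest wholly on the trend over genes. Without the library block neither passed (limma adjusted p = 0.302 for Ctsd and 0.398 for Lgmn), with each cell scaled to the same total neither did (0.0758 and 0.225), and against cells with none of the 3 marker genes neither did (0.884 and 0.540). Lgmn also missed the threshold with no filter on low genes (0.0706), median ratio scaling (0.0731) and the stricter gate (0.0576). Its call was thus lost in 6 alternative fits, most of those run, and that of Ctsd in 3. Without the highest cell of each population the Ctsd difference was 0.59.

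Ctsl, with 1136 and 1054 CPM in Thbs4-positive cells, against 1318 and 1621 CPM in Thbs4-negative cells, missed the threshold (-0.42 ± 0.15, limma, adjusted p = 0.0692). For Ctsk the difference was 0.27 ± 0.23 (limma, adjusted p = 0.676), but 1 cell held 47.1% of the Ctsk UMIs of the 16 Thbs4-positive cells of Heart2. Without the highest cell of each population the value was -0.18. Ctsc had 0 UMIs in the Thbs4-positive cells of both libraries, against 8.23 and 7.61 CPM in Thbs4-negative cells, and was under the filter.

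Of the other lists in the Thbs4 fit, the inhibitors had 2 of 6 genes higher, Cst3 (0.83 ± 0.12) and Cst6 (1.12 ± 0.24), and 0 lower. Of 11 sorting genes 3 were lower, Gnptg, a subunit of the enzyme that phosphorylates mannose (-1.18 ± 0.30), Igf2r (-0.79 ± 0.26) and Grn (-0.65 ± 0.21). Of 26 hydrolases 2 were lower, the glucosidase gene Gaa (-0.84 ± 0.25) and the ganglioside activator gene Gm2a (-0.82 ± 0.27), and of 15 membrane genes 1, the tetraspanin gene Cd63 (-0.47 ± 0.15). The 7 peptidases gave 0 calls. The genes with values here were named after their values were seen. Of all 8576 genes 2.90% were higher and 3.98% lower, and for so few genes the hydrolase and membrane counts are near these shares. Without the library block few calls of this fit were left. The difference of Lgmn between the Wif1 and the Thbs4 fits was not tested, and their reference cells overlap.

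Pi16-positive cells, about 9 in 10 of the fibroblast-gated cells, gave 0 calls among 9 proteases tested by limma, where 0.676% of 8734 genes were higher and 0.676% lower, and 1 of the 9, Ctsk, had an unadjusted p under 0.05. Ctsk had 103 and 141 CPM in Pi16-positive cells, against 43.4 and 94.9 CPM in Pi16-negative cells (0.85 ± 0.23, limma, adjusted p = 0.0996). Under the gate that allowed no marker of the other class it passed (0.0148). In cells above the library median of Pi16 against those at or below it, a split chosen after the data were seen, Ctsk had 126 and 146 CPM against 67.9 and 128 CPM and Lgmn 69.6 and 121 CPM against 169 and 134 CPM, neither called (limma adjusted p = 0.371 and 0.403). Of 5 inhibitors tested 1 was higher and 1 lower, and the other lists gave 0 calls. Cst6, the cathepsin inhibitor, was higher in Pi16-positive cells, with 128 and 58.3 CPM against 43.4 and 6.12 CPM (1.98 ± 0.29, limma, adjusted p = 0.00187). Timp3, named after its value was seen, was lower, with 1124 and 635 CPM against 2431 and 1094 CPM (-0.95 ± 0.14, limma, adjusted p = 0.00231).

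For each protease the 3 most alike of 3259 genes with a mean of at least 50 CPM were found by Pearson's r over 10 populations, the 5 populations of macrophage-gated, Wif1-positive, Thbs4-positive, Pi16-only and unmarked fibroblast-gated cells in each library. Populations of a library share its depth, and the gap between the classes sets much of each r. Ctsk was most like Bmp4 and Ptgfrn (0.989 each) and the collagen gene Col5a1 (0.987). Ctsl was most like the glutathione transferase gene Gsta3 (0.958), the laminin gene Lama4 (0.957) and Ndufa4l2 (0.956). Lgmn was most like the MHC class II genes H2-Ab1 (0.988), H2-Eb1 (0.987) and H2-Aa (0.969), and Ctsh like H2-Aa and Cd74 (0.982 each) and H2-Eb1 (0.971). Of the Cd74 UMIs of Wif1-positive cells, 1 cell of Heart1 held 109 of 136 and 1 cell of Heart2 held 61 of 67. Among macrophage-gated cells, the Folr2-positive over negative ratio of Cd74 was 0.123 in Heart1 and 0.201 in Heart2. For Ctsh it was 0.440 and 0.677, but for Lgmn 1.23 and 1.07, so Lgmn did not follow Cd74 there.

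Ctss was most like Ptprc, the common leukocyte gene, C5ar1 and Ccl6, each with an r that rounded to 1. Ctsb was most like Lyz1, Ccl6 and Cd300c2 (0.993 each), Ctsc like Blvrb (0.992), Slamf9 (0.983) and Ms4a6c (0.982), and Ctsa like Slamf9 (0.983), Ms4a6c (0.982) and Arpc5 (0.980). Ctsz was most like the mannosidase gene Man2b1 (0.972), Cyba (0.968) and Ostf1 (0.967). Ctsd had the lowest best match, Rac1 (0.929), then Ccl4 (0.915) and Vsir (0.912).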

How the data were processed

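Per the labels' protocols, sorted cells were processed with the 10x Chromium v3 3' kit. Cell Ranger 3.0.2 and mm10 are named in the submitters' processing notes. The authors deposited 1 table of natural log values, ln(1 + UMIs per 10000 UMIs of the cell), a unit read from the values. Each cell's values were whole multiples of its lowest one within 1e-06, which gave back UMIs, and 0 columns of cells were left out. No count model was run on the recovered UMIs, since the deposited values are logs. UMIs were summed per library and population and tested with limma 3.58.1 (R 4.3.3, mean-variance trend, library block, genes with a mean of at least 10 CPM, Benjamini-Hochberg adjustment). Poisson and binomial intervals came from scipy 1.17.1, at 95%. Doublets were not called. Cells with markers of both classes were kept out by the gates, and a stricter gate was an alternative. The planned joint fit of the fibroblast subsets could not be made, because its reference had 10 cells in Heart1 and 15 were needed, so a fit for each marker replaced it. The fit was also run on simulated data, built from the macrophage-gated sums alone at the depths of both classes. That run did not cover the subset fits, and no result above rests on it. Libraries pair the classes, since cells of 1 library share its preparation. List genes with values are up to 4 in each list for the classes and up to 2 for a subset, with the largest difference among those 2-fold apart in both libraries. The members and lists were chosen with earlier results of these data known. Promoter sequences and coordinates are from RefSeq (GRCm38.p6), where 8 of the 10 members had an entry, and gene spans from GENCODE.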

Additional observations from a re-analysis of the deposited data

How the results depend on the processing

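Between macrophage-gated and fibroblast-gated cells, all 110 alternative values of the proteases kept their direction, and their side of the limma threshold under other pseudocounts, no filter, other scalings, a stricter gate and no replicate block. A single library or leaving out the highest cell gives values with no test. All 36 alternative counts stayed within 1.5 times the main ones. The median of all genes was -0.159, -0.075 with median ratio scaling and -0.179 with equal cell totals. Subset counts of genes were less stable, with the cause not tested. Without the replicate block, limma called 19 higher and 36 lower genes for Wif1, in place of 200 and 209, 6 and 2 for Thbs4, in place of 249 and 341, and 1 and 0 for Pi16, in place of 59 and 59, while the class counts were 1260 and 1774. For Wif1, cells with none of the 3 marker genes as reference gave 129 lower genes. For Thbs4, median ratio scaling gave 154 and 202, equal cell totals 153 and 178, the stricter gate 162 and 209, at least 2 UMIs of the marker 133 and 189, and the reference with none of the markers 136 lower genes. For Pi16, the stricter gate gave 144 and 111, the reference with none of the markers 4 and 0, at least 2 UMIs 26 and 27, and the split at the median 24 lower genes. Of the protease values, 11 lost their call for Wif1 and 9 for Thbs4, and 1 gained it for Pi16. Values that changed sign between fits were called in neither. Between Wif1-positive and Wif1-negative cells, Ctsb was -0.01 and Ctsd -0.03 with equal cell totals, Ctsb -0.00 under the stricter gate, and Ctsb -0.14 and Ctsd -0.32 against cells with none of the markers. For Thbs4, Ctsh was 0.25 against cells with none of the markers and Ctsa -0.20 at 2 UMIs. For Pi16, Ctsh was 0.28 and Ctsl -0.03 against cells with none of the markers, and Ctsa -0.01 and Ctsb 0.02 in the split at the median. In 9 of 26 subset values, none of them called, the libraries had opposite signs. In Heart1 and Heart2 these were, for Wif1, Ctsa (-0.52 and 0.28), Ctsb (-0.13 and 0.17) and Ctsd (-0.49 and 0.59), for Thbs4, Ctsa (0.16 and -0.11), Ctsh (0.21 and -0.28) and Ctsz (0.01 and -0.68), and for Pi16, Ctsd (-0.47 and 0.12), Ctsh (-0.55 and 0.03) and Ctsl (0.09 and -0.02). Without the highest cells, Ctsb (-0.08) and Ctsd (-0.07) for Wif1 and Ctsa (-0.09) and Ctsk (-0.18) for Thbs4 changed sign. The Wif1 call of Ctsl was lost in 7 fits, most of those run. Fewer than 10 cells of Heart2 had 2 Wif1 UMIs, so that fit was not run, nor was the planned joint fit. With 37 macrophage-gated cells in Heart1 and 10 Wif1-positive cells in Heart2, single cells can move a level. Of 80 alternative shares of cells with a UMI, 29 moved beyond their interval, all when cells were thinned to 3000 UMIs.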
